A study of Mus musculus with 12 samples.

Results

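The integrated stress response genes described here are Atf4, which encodes the transcription factor ATF4, and 9 genes known as its targets, 10 in all: Atf4, Ddit3, Atf3, Trib3, Ppp1r15a, Asns, Psat1, Chac1, Sesn2 and Vldlr. They were taken by symbol from the array's probe table and are 10 of 18193 genes with a probe set of a single symbol; each gene is represented by its brightest probe set, and all 10 were among the 12735 genes bright enough to be tested. RNA was measured in 12 subcutaneous tumors of LLC, a mouse lung carcinoma line, each on 1 Affymetrix array, in 4 groups of 3. The 1D11_radiation tumors received the TGF-beta-neutralizing antibody 1D11 and radiation, the radiation tumors the isotype control antibody 13C4 and radiation, the 1D11 tumors 1D11 alone, and the control tumors 13C4 alone. All mice were C57BL/6 females aged 6 to 8 weeks, carried the same transplanted line, had tumors of 60 to 80 mm3 at allotment and were sampled on day 19. The characteristics give the radiation as 5 fractions of 6 Gy, whereas the descriptions give 2 Gy. The labels number the replicates without saying that each is a separate mouse, so the p-values measure the spread between these samples, which may be technical.

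When cells are short of amino acids, hold misfolded protein in the endoplasmic reticulum, lack heme or sense double-stranded RNA, kinases phosphorylate the translation factor eIF2. Bulk protein synthesis then slows while ATF4 is translated more, and ATF4 induces genes of amino acid synthesis, amino acid uptake and stress control. ATF4 is set largely at translation, so its mRNA does not report its protein. Tumors are known to draw on this response under hypoxia and nutrient shortage.

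ATF4 binds as a dimer with C/EBP proteins to the C/EBP-ATF response element, written here as TGATGNAAN and searched on both strands of the RefSeq promoter table (GRCm38.p6), which holds 250 bases before and 50 after each start site. A match is a description of letters and not evidence of binding. Of the 10 genes, 5 had a match in at least 1 window (50%), against 1215 of 27025 genes in the whole table (4.5%). Among 32 other ATF4-linked genes found there, drawn from the lists of amino acid synthesis, amino acid transport, tRNA charging and other targets, 12 had one (37.5%). The 4 upstream windows with a match are printed 5′ to 3′ on the strand of the gene, from 250 bases before the start site up to it, because they hold the pattern that these 4 genes have and the upstream windows of the other genes do not; capitals mark the match.

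Asns, chr6:7693210-7693459, minus strand: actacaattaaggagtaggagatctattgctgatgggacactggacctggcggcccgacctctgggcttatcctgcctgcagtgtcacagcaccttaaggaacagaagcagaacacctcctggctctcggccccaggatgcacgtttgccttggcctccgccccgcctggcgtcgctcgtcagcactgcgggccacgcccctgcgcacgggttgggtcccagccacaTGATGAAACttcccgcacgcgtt
Chac1, chr2:119350992-119351241, plus strand: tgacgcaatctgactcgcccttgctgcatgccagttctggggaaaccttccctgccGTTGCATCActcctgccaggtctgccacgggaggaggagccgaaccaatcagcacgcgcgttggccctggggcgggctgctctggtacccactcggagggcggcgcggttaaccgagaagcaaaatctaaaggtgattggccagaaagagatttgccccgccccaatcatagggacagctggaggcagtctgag
Atf3, chr1:191183334-191183583, minus strand: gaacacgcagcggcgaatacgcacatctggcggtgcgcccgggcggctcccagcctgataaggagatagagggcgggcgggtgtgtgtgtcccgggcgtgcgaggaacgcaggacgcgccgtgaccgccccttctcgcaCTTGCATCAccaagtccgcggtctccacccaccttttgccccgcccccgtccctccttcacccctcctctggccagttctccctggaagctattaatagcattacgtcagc
Vldlr, chr19:27216770-27217019, plus strand: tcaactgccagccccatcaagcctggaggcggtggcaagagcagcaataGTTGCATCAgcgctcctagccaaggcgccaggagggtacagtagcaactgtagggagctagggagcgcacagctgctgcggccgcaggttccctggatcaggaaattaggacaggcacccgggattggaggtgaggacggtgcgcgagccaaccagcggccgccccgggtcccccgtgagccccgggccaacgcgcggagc

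In Asns the match reads on the strand of the gene, at positions -23 to -15 from the start site. In Chac1 (-194 to -186), Atf3 (-111 to -103) and the downstream Vldlr window (-201 to -193) it reads on the opposite strand, and the 9 letters GTTGCATCA are the same in Chac1 and Vldlr. Trib3 had its match, TTTACATCA, at 14 to 22 bases after the start. The windows of Ddit3, Atf4, Sesn2, Ppp1r15a and Psat1 had no match to these letters.

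Irradiated tumors of both antibodies, 6 in all, were set against the 6 unirradiated tumors. Vldlr, the very-low-density lipoprotein receptor, and Ddit3, which encodes the stress transcription factor CHOP, rose: 2 of the 10 genes were called, where a call is an adjusted p under 0.05 in limma with Benjamini-Hochberg adjustment over all 12735 genes, and 7.26% of all genes were called in this comparison. Every one of the 10 genes had a higher mean in irradiated tumors, against 45.3% of all genes, and the median log2 change was 0.24 for the 10 genes and -0.01 for all genes. Of the 8 genes that were not called, Atf3, Sesn2 and Atf4 had an unadjusted p under 0.05. With the 2 called genes this made 5 of the 10, against 24.3% of all genes.

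Ddit3 measured 8.56, 8.64 and 8.52 in 1D11_radiation tumors, 8.78, 8.44 and 8.54 in radiation tumors, 8.03, 8.37 and 8.14 in 1D11 tumors and 8.22, 8.41 and 8.29 in control tumors (log2 intensity, replicates 1 to 3). The lowest irradiated tumor lay above the highest unirradiated tumor, so that the groups did not overlap, which held for 1.95% of all genes in this direction. The mean change was 0.34 ± 0.07 (log2 ± SE, 6 against 6 tumors, limma adjusted p = 0.0221), or 1.26-fold. The call ended without radiation replicate 1 (0.29, adjusted p = 0.052) or 1D11 replicate 3 (0.33, adjusted p = 0.0527). A second, dimmer Ddit3 probe set changed by 0.19 ± 0.10 and did not pass (adjusted p = 0.267).

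Vldlr measured 7.39, 8.39 and 7.47 in 1D11_radiation tumors, 7.76, 7.13 and 7.74 in radiation tumors, 5.85, 5.88 and 6.54 in 1D11 tumors and 6.48, 7.52 and 6.99 in control tumors. All 3 1D11 tumors were lower than every irradiated tumor, and control replicate 2 reached into the irradiated range. Irradiated tumors were higher by 1.10 ± 0.23 (adjusted p = 0.0191), or 2.14-fold, the largest change among the 10 genes. The call ended without radiation replicate 1 (1.05, adjusted p = 0.0528) or 1D11 replicate 2 (1.05, adjusted p = 0.0513).

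The brightest Vldlr probe set is of a type that can share probes with other transcripts, so the gene's 5 other probe sets were examined. The third brightest measured 6.12, 6.98 and 6.25 in 1D11_radiation tumors, 6.36, 5.95 and 6.22 in radiation tumors, 4.79, 4.69 and 4.92 in 1D11 tumors and 4.76, 5.87 and 5.48 in control tumors. It separated all irradiated from all unirradiated tumors and rose by 1.23 ± 0.19 (adjusted p = 0.00711). The 3 dimmest probe sets had means of 4.72 to 5.07, below the brightness limit of 5.37 under which no gene was tested. Of these the fifth brightest also separated the tumors, at 0.56 ± 0.13 (adjusted p = 0.0237). The remaining 3 of the 5 changed by 0.16 to 0.33 with adjusted p from 0.0609 to 0.246. All 6 probe sets were higher in irradiated tumors, at different sizes, and their values over the 12 tumors correlated with the brightest at r from 0.69 to 0.96.

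**Figure D1:**
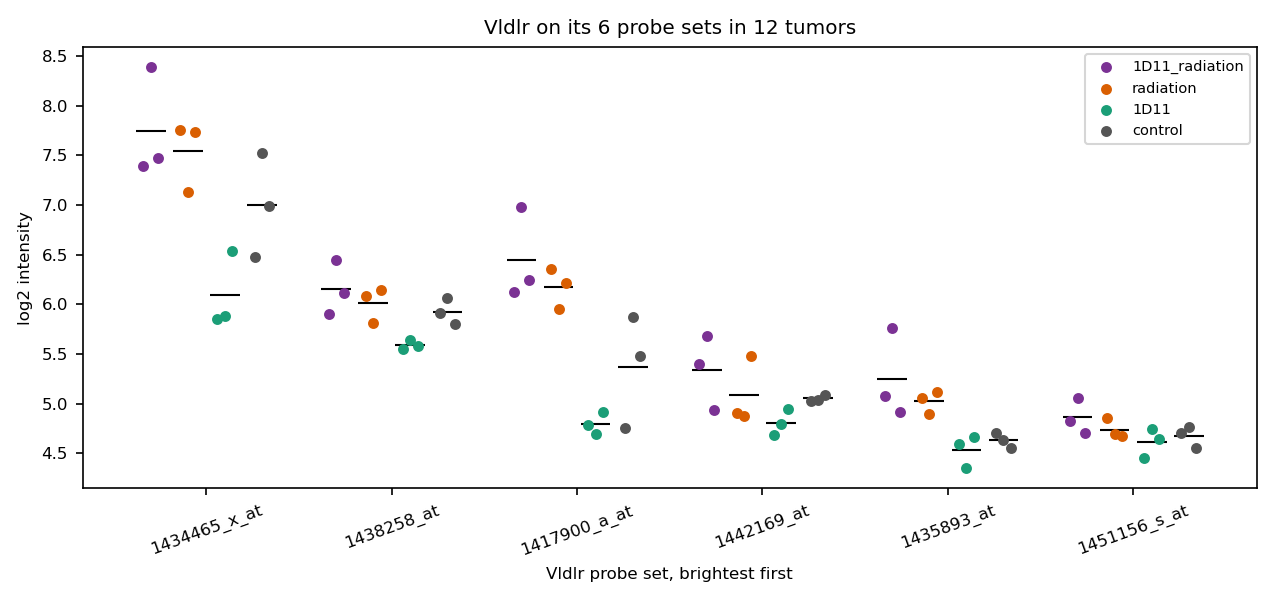
Log2 intensity of Vldlr on each of its 6 probe sets (x axis, brightest first) in the 12 tumors, with points for tumors, bars for group means and colors for the 4 groups. The 1D11 tumors lie below the 1D11_radiation tumors on the 3 leftmost probe sets, and the spread between groups shrinks on the dimmest one.

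Of the transcription factors, Atf4 itself measured 12.14, 12.05 and 12.19 in 1D11_radiation tumors, 12.20, 12.01 and 12.22 in radiation tumors, 12.07, 11.91 and 11.98 in 1D11 tumors and 11.94, 12.09 and 11.95 in control tumors. These values span a narrow range in which the groups overlap, and the change with radiation was 0.14 ± 0.06 (adjusted p = 0.137). The second bright Atf4 probe set followed the first only loosely over the tumors (r = 0.15) and gave 0.11 ± 0.16. Atf3, a stress-induced factor of the same family that growth signals and p53 also induce, measured 8.29, 8.16 and 8.26 in 1D11_radiation tumors, 8.85, 8.24 and 7.79 in radiation tumors, 7.87, 7.69 and 7.59 in 1D11 tumors and 7.56, 8.02 and 7.89 in control tumors. Radiation replicate 1 was the highest and radiation replicate 3 lay among the unirradiated tumors. The change was 0.50 ± 0.15 (adjusted p = 0.0715), and it passed without radiation replicate 3 (0.62, adjusted p = 0.014).

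Trib3 and Ppp1r15a act as brakes on the response: Trib3 encodes a pseudokinase that binds ATF4, and Ppp1r15a encodes GADD34, which directs a phosphatase to eIF2. Trib3 measured 8.24, 8.17 and 8.29 in 1D11_radiation tumors, 8.64, 8.42 and 7.82 in radiation tumors, 8.05, 7.95 and 7.92 in 1D11 tumors and 7.94, 8.28 and 8.14 in control tumors. Radiation replicate 3 was the lowest of the 12 tumors and radiation replicate 1 the highest. The change was 0.22 ± 0.12 (adjusted p = 0.3), and it passed without radiation replicate 3 (0.34, adjusted p = 0.0199). The Trib3 probe set used here is of the type that can share probes with other transcripts. A second, dimmer Trib3 probe set changed by 0.21 ± 0.06 (adjusted p = 0.0636). On it radiation replicate 3, at 7.18, lay above control replicate 1 (7.17) and every tumor of the 1D11 group (6.91, 7.06 and 7.08). It lay below control replicates 2 (7.38) and 3 (7.20) and was the lowest irradiated tumor. Ppp1r15a measured 8.88, 9.04 and 8.95 in 1D11_radiation tumors, 9.10, 8.71 and 8.67 in radiation tumors, 8.88, 8.65 and 8.51 in 1D11 tumors and 8.22, 8.83 and 8.75 in control tumors, with its lowest value in control replicate 1. It differed by 0.25 ± 0.12 (adjusted p = 0.213).

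None of the 3 metabolic members was called (limma) or had an unadjusted p under 0.05. Asns, asparagine synthetase, measured 11.43, 11.18 and 11.29 in 1D11_radiation tumors, 11.47, 11.37 and 11.11 in radiation tumors, 11.19, 11.17 and 11.12 in 1D11 tumors and 11.33, 11.21 and 11.21 in control tumors. Its change with radiation was 0.10 ± 0.07 (adjusted p = 0.394), with a 95% interval from -0.05 to 0.25. The Asns probe set used here is of the type that can share probes with other transcripts. The gene's second probe set changed by 0.10 ± 0.06 (adjusted p = 0.308). Psat1, an aminotransferase of serine synthesis, measured 11.24, 10.92 and 11.40 in 1D11_radiation tumors, 11.27, 11.21 and 10.61 in radiation tumors, 11.11, 10.98 and 10.89 in 1D11 tumors and 11.07, 11.02 and 10.99 in control tumors. Both the highest and the lowest value were in irradiated tumors, and the change was 0.10 ± 0.12 (adjusted p = 0.665; interval from -0.16 to 0.36). Chac1, which degrades glutathione, measured 5.91, 6.05 and 6.03 in 1D11_radiation tumors, 6.18, 6.22 and 6.69 in radiation tumors, 5.87, 6.42 and 5.91 in 1D11 tumors and 6.38, 6.00 and 6.03 in control tumors. Its change was 0.08 ± 0.12 (adjusted p = 0.751; interval from -0.19 to 0.34).

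Sesn2 encodes a leucine-sensing inhibitor of mTORC1 that p53 and NRF2 are also known to induce. It measured 9.07, 8.89 and 8.80 in 1D11_radiation tumors, 8.55, 8.80 and 8.82 in radiation tumors, 8.41, 8.66 and 8.60 in 1D11 tumors and 7.84, 8.42 and 8.59 in control tumors. Control replicate 1 was the lowest tumor, and the highest value was in a 1D11_radiation tumor. The change with radiation was 0.40 ± 0.12 (adjusted p = 0.0622). It passed without control replicate 1 (0.29, adjusted p = 0.0493) or control replicate 3 (0.48, adjusted p = 0.0326), and the gene's second probe set was called at 0.34 ± 0.07 (adjusted p = 0.0188).

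**Figure D2:**
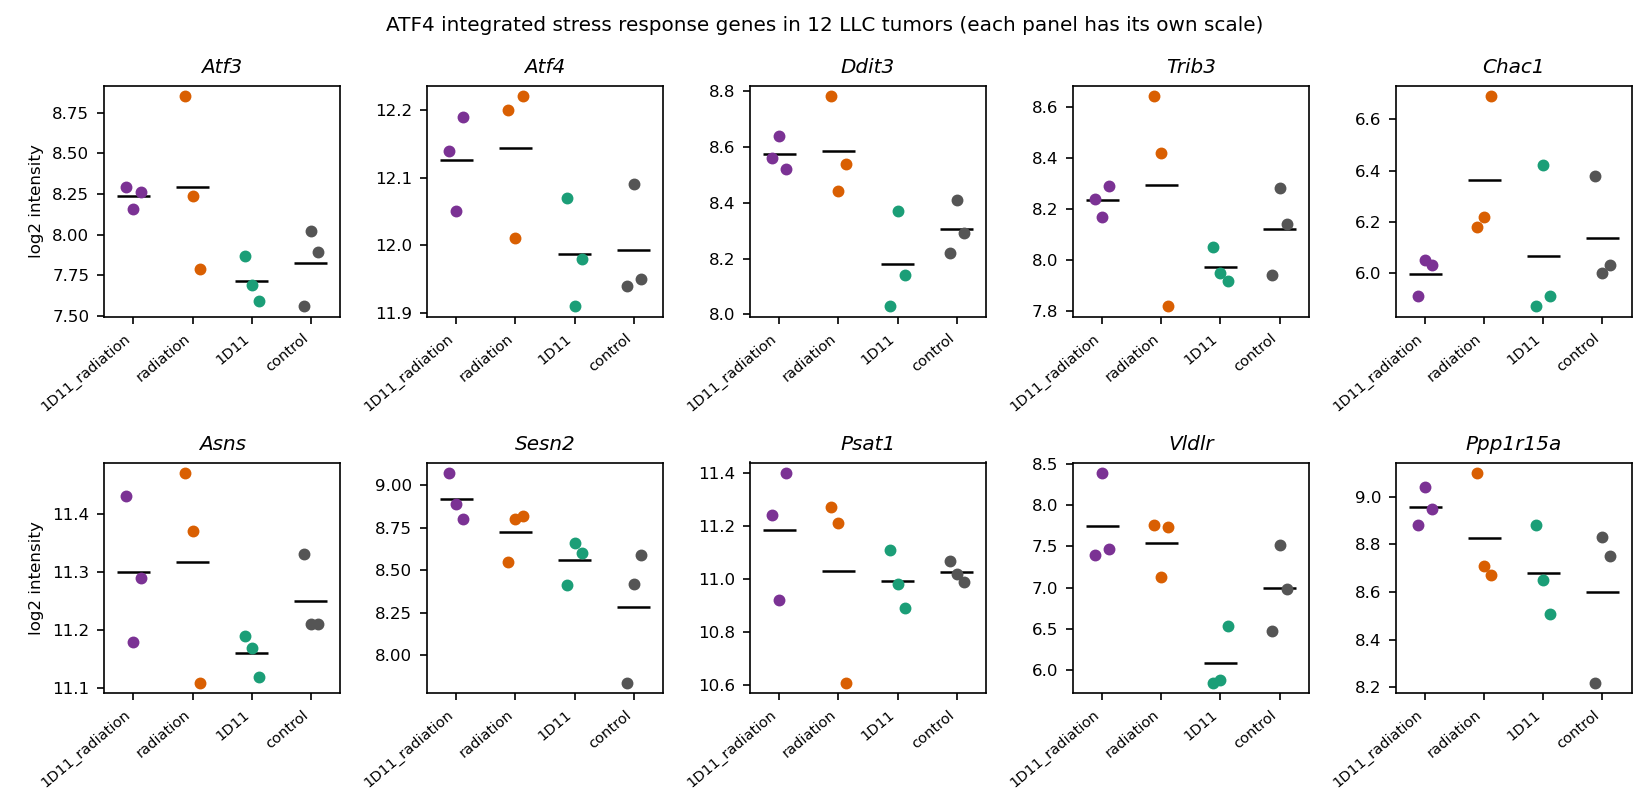
Log2 intensity of the 10 genes (1 panel each, each with its own scale) in the 3 tumors of each of the 4 groups, with points for tumors in replicate order and bars for group means. For Ddit3 all irradiated tumors lie above all unirradiated ones, while for Psat1 and Chac1 the groups overlap.

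Under 1D11, the 1D11_radiation tumors were set against the 1D11 tumors to show the effect of radiation while TGF-beta is neutralized. None of the 10 genes was called (limma), against 0.0785% of all genes. An unadjusted p under 0.05 was found for 4 of the 10, against 15.5% of all genes. Means were higher for 9 of the 10, against 42.4% of all genes, and Chac1 was the exception (-0.07 ± 0.17). The median change was 0.27 for the 10 genes and -0.03 for all genes. For 6 genes, Atf3, Ddit3, Trib3, Sesn2, Vldlr and Ppp1r15a, every 1D11_radiation tumor was higher than every 1D11 tumor, against 9.59% of all genes. Vldlr averaged 7.75 ± 0.55 log2 intensity in 1D11_radiation tumors and 6.09 ± 0.39 in 1D11 tumors (SD, n = 3 each), a change of 1.66 ± 0.33 or 3.15-fold (limma adjusted p = 0.063). Without control replicate 1, which enters this fit only through the shared spread, the same change passed (adjusted p = 0.0313). Ddit3 averaged 8.58 ± 0.06 in 1D11_radiation tumors and 8.18 ± 0.17 in 1D11 tumors, a change of 0.40 ± 0.11 (limma adjusted p = 0.119, n = 3 each). Atf3 (0.52 ± 0.21) and Sesn2 (0.37 ± 0.17) were the other pair below an unadjusted p of 0.05, at adjusted p of 0.27 and 0.32.

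Under the control antibody, radiation tumors were set against control tumors. None of the 10 was called, against 2.39% of all genes, 61.8% of these higher as deposited and 51.6% with quantile normalization. An unadjusted p under 0.05 was found for 3 of the 10, against 18.7% of all genes. All 10 means were higher in radiation tumors, against 49.6% of all genes, with a median change of 0.23, against -0.002 for all genes. The smallest of the 10 changes was that of Psat1, at 0.004 ± 0.165. Sesn2 changed by 0.44 ± 0.17 (adjusted p = 0.191), Ddit3 by 0.28 ± 0.11 (adjusted p = 0.188) and Atf3 by 0.47 ± 0.21 (adjusted p = 0.266). The second Sesn2 probe set changed by 0.42 ± 0.10 (adjusted p = 0.0521). Vldlr averaged 7.54 ± 0.36 in radiation tumors and 7.0 ± 0.52 in control tumors, a change of 0.55 ± 0.33 (limma adjusted p = 0.403, n = 3 each).

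**Figure D3:**
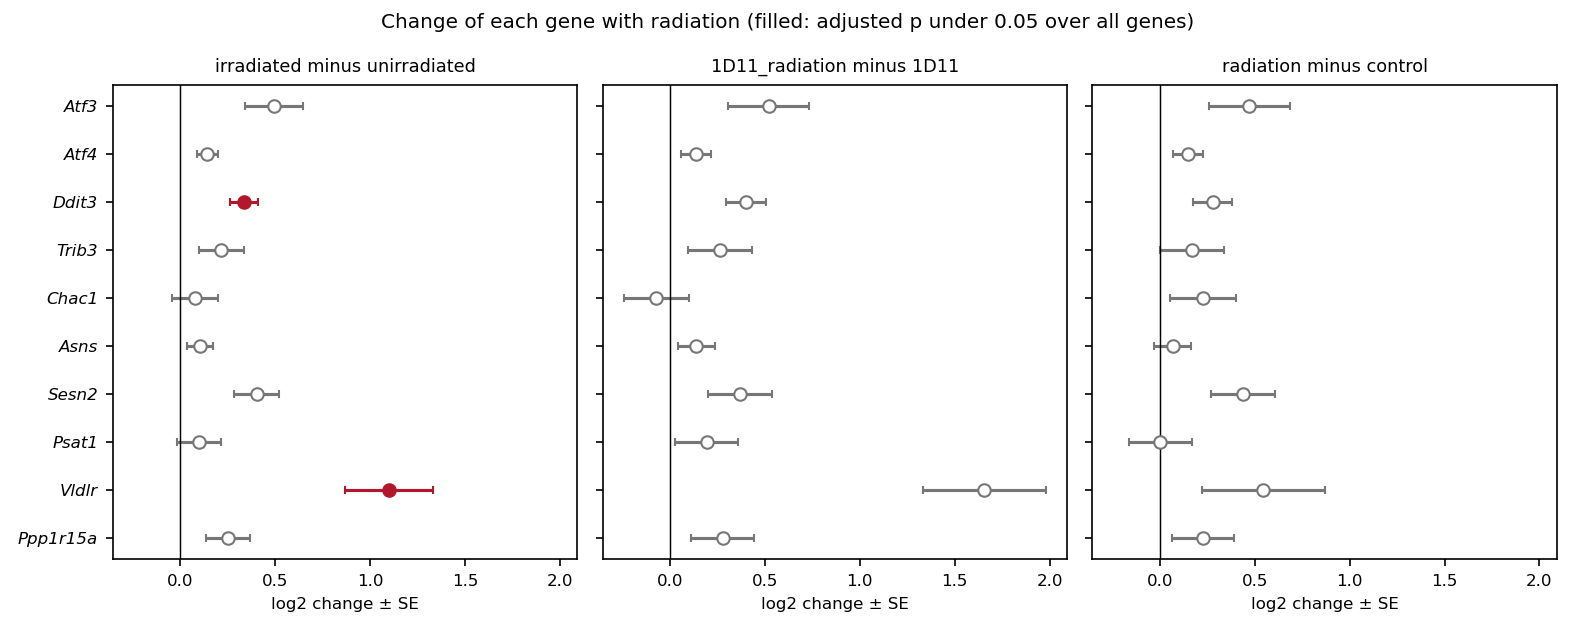
Log2 change ± SE of the 10 genes for all irradiated against all unirradiated tumors (left), 1D11_radiation against 1D11 (middle) and radiation against control (right); filled red points have an adjusted p under 0.05. Filled points are Ddit3 and Vldlr in the left panel, and Vldlr lies farthest to the right in all 3 panels.

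Whether the antibody alters the response to radiation was tested as the interaction, the effect of radiation under 1D11 minus that under 13C4. None of the 10 genes was called, nor was any other gene (0%; 952 genes had an unadjusted p under 0.05, and 122 genes, none of them among the 10, were called with array weights). Without control replicate 1, 21 genes were called, again none of the 10. Of the 10, Vldlr alone had an unadjusted p under 0.05, against 7.48% of all genes. Its interaction was 1.11 ± 0.46 (adjusted p = 0.621). For Ddit3 the interaction was 0.12 ± 0.15 with a 95% interval from -0.21 to 0.45, and for Atf3 it was 0.05 ± 0.30 with an interval from -0.62 to 0.72. These intervals include 0 and also differences as large as the radiation effect itself.

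Neutralizing TGF-beta left the 10 genes without a called change in limma. Of the 10 means 8 were lower in 1D11 than in control tumors and 2 higher, whereas 62.1% of all genes were higher. The median change was -0.08 for the 10 genes and 0.04 for all genes. Between 1D11 and control tumors 1 of the 10 had an unadjusted p under 0.05, against 14.1% of all genes. None of the 10 was called, and 0.0157% of all genes were called. Those 2 genes became 21 without control replicate 1 or 2, 5 without radiation replicate 3, and 0 without radiation replicate 1 or 2, 1D11 replicate 1 or 3, or 1D11_radiation replicate 1. The gene of the 10 with that p was Vldlr, at 6.09 ± 0.39 in 1D11 tumors and 7.0 ± 0.52 in control tumors, a change of -0.91 ± 0.33 (limma adjusted p = 0.262, n = 3 each). On its 5 other probe sets the change was smaller, from -0.57 to -0.06. Between 1D11_radiation and radiation tumors none was called, none had an unadjusted p under 0.05, and 0% of all genes were called (688 genes had an unadjusted p under 0.05). Chac1 had the smallest p there, at 6.00 ± 0.08 in 1D11_radiation tumors and 6.37 ± 0.28 in radiation tumors (-0.37 ± 0.17, limma adjusted p = 0.84, n = 3 each). Over both radiation states, 1D11 against 13C4 called none of the 10 genes and 0.00785% of all genes. None of the 10 had an unadjusted p under 0.05 there, against 12.5% of all genes. The group means of Vldlr were highest in 1D11_radiation tumors, then radiation, control and 1D11 tumors, and no neighbours in that order differed at an adjusted p under 0.05.

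Against control tumors, the 1D11_radiation tumors carried both treatments. None of the 10 genes was called in limma, against 2.35% of all genes, 72.9% of these higher as deposited and 52.5% with quantile normalization. An unadjusted p under 0.05 was found for 3 of the 10, against 21.2% of all genes. Sesn2 averaged 8.92 ± 0.14 in 1D11_radiation tumors and 8.29 ± 0.39 in control tumors, a change of 0.64 ± 0.17 (limma adjusted p = 0.0693, n = 3 each). It passed without control replicate 3 (0.79, adjusted p = 0.0467). The second Sesn2 probe set changed by less, 0.36 ± 0.10 (adjusted p = 0.0781). Vldlr changed by 0.75 ± 0.33 (adjusted p = 0.216) and Ddit3 by 0.27 ± 0.11 (adjusted p = 0.174). For 4 genes, Atf3, Ddit3, Sesn2 and Ppp1r15a, every 1D11_radiation tumor was higher than every control tumor, which held for 14.7% of all genes.

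Other genes of the pathway were examined for irradiated against unirradiated tumors. Of 8 measured genes of amino acid synthesis 4 were higher and none was called (limma; 3 at an unadjusted p under 0.05); the smallest p-values were those of Phgdh, the first enzyme of serine synthesis (0.30 ± 0.11, adjusted p = 0.119), and Cth, a cysteine-forming enzyme (0.29 ± 0.11). The Cth average joins 0.75 ± 0.16 for 1D11_radiation against 1D11 and -0.17 ± 0.16 for radiation against control (interaction 0.92 ± 0.23, adjusted p = 0.381). Leaving out control replicate 1 or 3 gave 1 called gene of amino acid synthesis. Of 9 amino acid transporters 6 were higher and none was called (4 unadjusted), with Slc3a2, the heavy chain of several transporters, at 0.21 ± 0.06 (adjusted p = 0.0507) and Slc7a11, the cystine transporter, at 0.60 ± 0.19 (adjusted p = 0.0736). Called transporters numbered 2 without radiation replicate 3, and 1 without radiation replicate 2, control replicate 2 or 1D11_radiation replicate 3. Of 13 tRNA charging genes 12 were higher at a median of 0.10 and none was called (1 unadjusted); Wars had 0.11 ± 0.04 and Sars 0.10 ± 0.05. Among 9 other ATF4 targets 5 were higher, and the death receptor gene Tnfrsf10b, which p53 also induces, rose by 0.24 ± 0.06 (adjusted p = 0.0281). Its call ended without radiation replicate 1, 1D11 replicate 2 or 3, or any one of the 1D11_radiation tumors, and the median of these targets, 0.15, was 0.01 without control replicate 1.

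Upstream of ATF4, 3 of 10 genes of eIF2 kinases, eIF2B subunits and the constitutive phosphatase subunit were higher. Eif2b3, a subunit of the exchange factor that phosphorylated eIF2 blocks, rose by 0.29 ± 0.07 (adjusted p = 0.0296), and Eif2ak3, which encodes the endoplasmic reticulum kinase PERK, fell by 0.19 ± 0.05 on the log2 scale (adjusted p = 0.0347). Both calls ended without radiation replicate 1, control replicate 2, 1D11 replicate 2 or 3, or 1D11_radiation replicate 2 or 3. That of Eif2b3 also ended without radiation replicate 2, and that of Eif2ak3 without 1D11 replicate 1 or 1D11_radiation replicate 1. In the IRE1 and ATF6 branches of the unfolded protein response 2 of 14 genes were higher, at a median of -0.05. None was called (limma, 1 unadjusted). Pdia6, a disulfide isomerase, had -0.22 ± 0.08 (adjusted p = 0.113) and Xbp1, the factor spliced by IRE1, -0.14 ± 0.06. By antibody, 2 of the 14 were higher with radiation under 1D11 (median -0.096) and 8 under 13C4 (median 0.002).

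**Figure D4:**
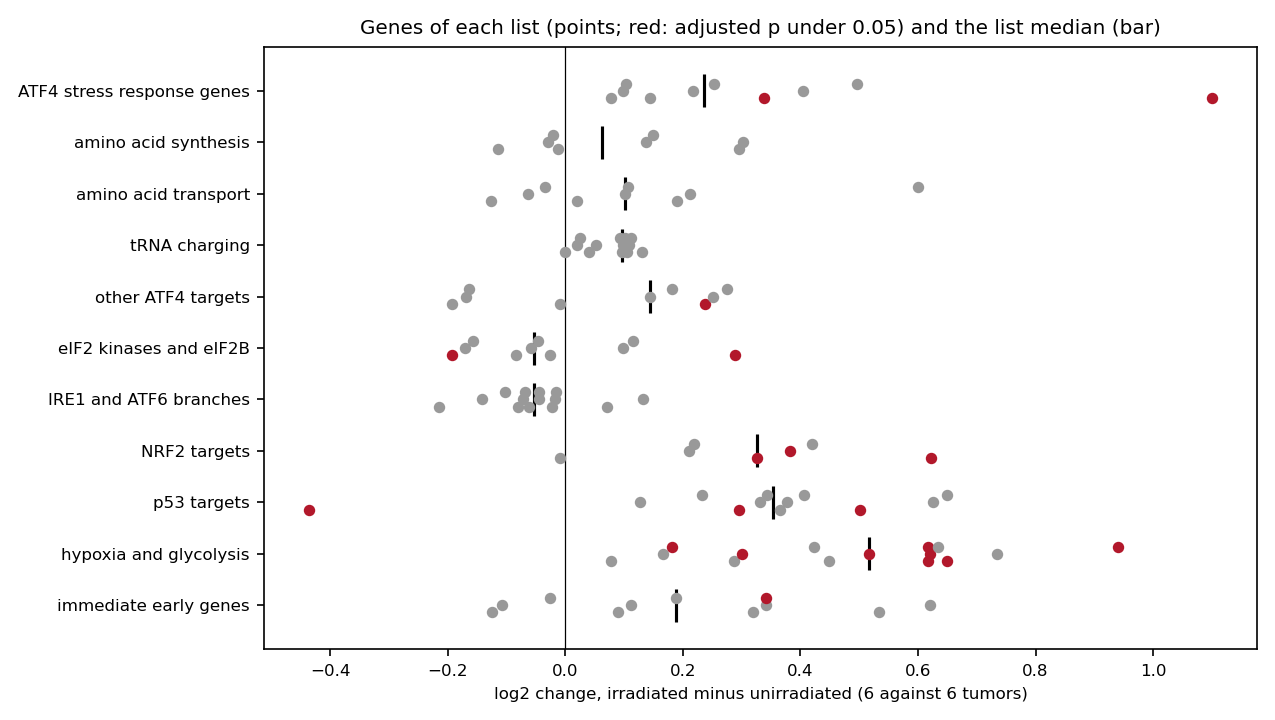
Log2 change of each gene (points) in irradiated against unirradiated tumors, by list, with bars for list medians and red points for genes with an adjusted p under 0.05. The 10 ATF4 stress response genes all lie above 0 with a median of 0.24, the IRE1 and ATF6 branches have a median of -0.05, and hypoxia and glycolysis genes have the highest median, 0.52.

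Programs that share targets with these genes moved in the same tumors. Of 15 hypoxia and glycolysis genes all 15 were higher in irradiated tumors and 8 rose. They were Adm, a vasodilator peptide (0.94 ± 0.23), Bnip3, a mitophagy receptor (0.65 ± 0.17), Vegfa, an angiogenic factor (0.62 ± 0.16), Ero1a, an oxidase of the endoplasmic reticulum (0.62 ± 0.16), P4ha2, a collagen hydroxylase (0.62), and the glycolysis genes Pfkfb3 (0.52), Pgk1 (0.30) and Ldha (0.18). It ranged between 1 and 9 when single tumors were left out: 1 without 1D11 replicate 2, 2 without radiation replicate 1, radiation replicate 2, 1D11_radiation replicate 1 or 1D11_radiation replicate 3, 3 without 1D11 replicate 1 or 1D11 replicate 3, and 5 without 1D11_radiation replicate 2. By antibody, all 15 were higher with radiation under 1D11 (median 0.625), and 13 were higher and 2 lower under 13C4 (median 0.25). None was called in either comparison (limma). In 1D11 against control tumors 1 was higher and 14 were lower (median -0.34). Vldlr is itself known as a target of hypoxia-inducible factors. The hypoxia score, the mean of the members' centred log2 values, ran from 0.19 to 0.38 in 1D11_radiation tumors, 0.01 to 0.40 in radiation tumors, -0.45 to -0.34 in 1D11 tumors and -0.53 to 0.19 in control tumors. The score of the 10 stress response genes ran from 0.16 to 0.19, 0.04 to 0.32, -0.24 to -0.19 and -0.26 to 0.02 in the same order of groups. In both scores control replicate 1 was lowest and radiation replicate 1 highest.

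Of 7 NRF2 targets 6 were higher, and the glutathione synthesis genes Gclc (0.38 ± 0.07) and Gclm (0.33 ± 0.07) and heme oxygenase, Hmox1 (0.62 ± 0.17), rose. Leaving out radiation replicate 3 gave 5 such genes, and 1 was left without radiation replicate 1, 1D11 replicate 2 or 3, or 1D11_radiation replicate 2 or 3. Of 12 p53 targets 11 were higher; Mdm2 (0.50 ± 0.09) and Aen (0.30 ± 0.06) rose and Sesn1, a relative of Sesn2, fell by 0.44 ± 0.08. Without control replicate 1 or 3, the number of p53 targets that rose was 6. Of 11 immediate early genes, which also respond to tissue handling, 8 were higher at a median of 0.19, which was 0.03 without radiation replicate 1. Nr4a1, a nuclear receptor, rose (0.34 ± 0.09). None of the 11 was called (limma) without radiation replicate 1, control replicate 2, 1D11 replicate 2 or 3, or any one of the 1D11_radiation tumors. Their score was highest in radiation replicate 1, at 0.42, and lowest in control replicate 1, at -0.37. The part of these programs in the changes of the 10 genes was not tested.

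**Figure D5:**
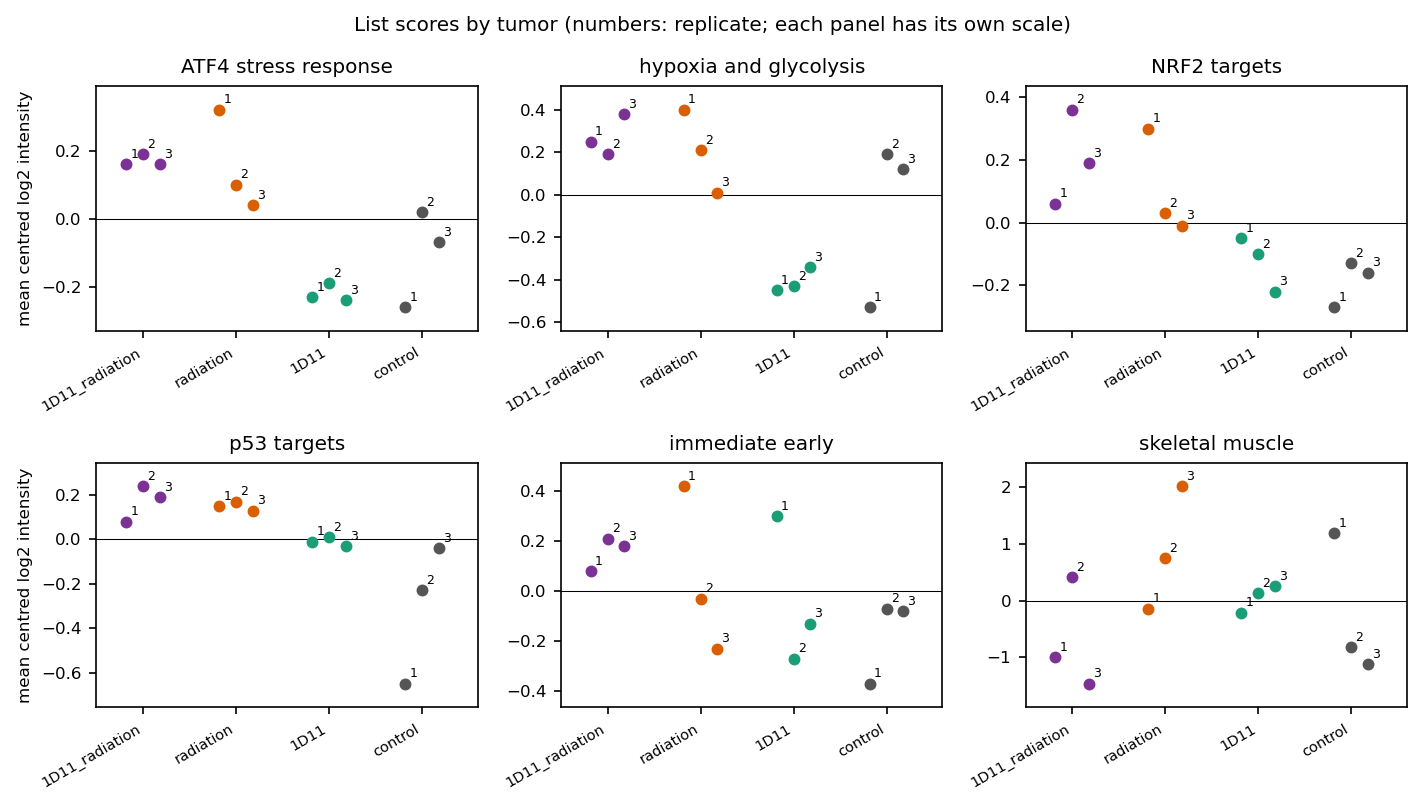
Scores (mean centred log2 intensity) of the 10 stress response genes and of 5 other lists in the 12 tumors, by group, with the replicate number beside each point. The stress response and hypoxia scores are lowest in control replicate 1 and in the 1D11 tumors, and the muscle score is highest in radiation replicate 3, at 2.01.

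In whole tumors, fewer cells of a type and less RNA per cell cannot be told apart. Epithelial keratins of the carcinoma were bright in all tumors (Krt8 at a median of 12.19 and Krt18 at 12.09 log2 intensity), whereas the lung markers Nkx2-1 and Sftpc and the epithelial cadherin Cdh1 had means below the brightness limit of 5.37. Single tumors reached 5.64 for Nkx2-1 and 7.0 for Cdh1, and the highest Sftpc value was 5.26. Of 8 cytotoxic lymphocyte markers 7 were higher in irradiated tumors, and Gzmb (1.10), Klrd1 (0.92), Gzma (0.85) and Cd3d (0.46) rose, 2 of them without radiation replicate 1. Their score ran from 0.03 to 0.54 in 1D11_radiation tumors, 0.29 to 0.35 in radiation tumors, -0.27 to 0.08 in 1D11 tumors and -0.54 to -0.29 in control tumors. All 8 endothelial markers were lower, and Vwf (-0.82), Tek (-0.70) and Ecscr (-0.40) fell, a count of 8 without control replicate 1. All 8 fibroblast markers were lower, and Pdgfrb (-1.47) and Pdgfra (-0.92) fell, a count of 4 without radiation replicate 3. The endothelial score ran from -0.20 to 0.01, -0.39 to -0.29, -0.07 to 0.27 and -0.02 to 0.53 in the same order of groups, and the fibroblast score from -0.68 to 0.32, -0.65 to 0.31, -0.05 to 0.30 and 0.30 to 0.63. Of 10 macrophage markers 7 were higher with Mrc1 called (0.70). By antibody, 1 was higher and 9 lower in 1D11_radiation than in 1D11 tumors (median -0.25). In radiation against control tumors 9 were higher and 1 lower (median 0.34). All 4 tested carcinoma markers were higher in irradiated tumors with Krt19 called (0.43). No carcinoma marker was called without radiation replicate 1 or 2, 1D11 replicate 1 or 3, or 1D11_radiation replicate 3, and 2 were without 1D11 replicate 2. None of 6 neutrophil, 4 keratinocyte, 4 adipocyte or 12 skeletal muscle markers was called (limma); 5, 0, 0 and 12 of them were higher, and 2, 1, 1 and 0 had an unadjusted p under 0.05. Without 1D11 replicate 2, 3 keratinocyte markers were called lower, and 1 neutrophil marker was called without 1D11 replicate 1 and 1 adipocyte marker without 1D11_radiation replicate 2. The 12 muscle markers higher became 3 without radiation replicate 3, 4 without 1D11_radiation replicate 2, 5 without control replicate 3 and 8 without control replicate 2. That count joins opposite directions under the 2 antibodies. All 12 muscle markers were lower in 1D11_radiation than in 1D11 tumors (median -0.798). All 12 were higher in radiation than in control tumors (median 1.199), and none was called in either comparison (limma). Skeletal muscle scores were highest in radiation replicate 3 (2.01) and control replicate 1 (1.19). Without these 2 tumors Ddit3 (0.33, adjusted p = 0.0388) and Vldlr (0.92, adjusted p = 0.0408) kept their calls for radiation, and Atf3 (0.56, adjusted p = 0.0155) and Trib3 (0.29, adjusted p = 0.0185) were called as well. Keratinocyte scores were 1.04 and 2.29 in 1D11 replicates 1 and 3 and at most -0.18 in the other tumors. The part of cell composition in the results was not tested.

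Among themselves the 10 genes varied in different ways. Over the 12 tumors, 38 of the 45 pairs correlated positively at a median r of 0.45; with group means removed 27 did, at a median of 0.09. The pair most alike was Atf3 and Trib3 (r = 0.92, and 0.94 with group means removed), followed within groups by Asns and Psat1 (0.85). Chac1 ran opposite to Trib3 within groups (-0.73), and Vldlr, most like Ddit3 over all tumors (r = 0.82), had 0.45 with it within groups. These correlations share arrays and normalization and are given as a description.

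The genes whose values over the 12 tumors were most like the mean of the 10 stress response genes were Dusp4, Sipa1l2, Parvb, Klhdc1 and Pgam1, at Pearson r from 0.94 to 0.95 and Spearman rho from 0.87 to 0.97. They are the top 5 of 12725 genes ranked, so these values are a description. Without control replicate 1 and radiation replicate 1, the tumors farthest from the median score, r was 0.92 to 0.96. With group means removed, r was 0.79 to 0.92 for the same genes.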

How the data were processed

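The values analysed are the deposited intensity summaries, 1 per probe set and array on a linear scale; per the labels' protocols, 6 µg of RNA was labelled as biotinylated cRNA. How the probes were corrected, normalized and summarized is not given in the sources used here. Array medians of 62.3 to 66.1 and sorted log2 values within 0.129 of each other showed that the deposited intensities were already normalized between arrays, so log2 was taken with no further step. Probe sets with 1 gene symbol numbered 34945, those with several 932. Genes in the lowest 30 percent of means were not tested. In R 4.3.3, limma 3.58.1 (lmFit, eBayes) fitted 1 mean per group over all 12 arrays (8 residual and 3.11 prior degrees of freedom) and gave 8 contrasts; tests were two-sided, and p-values were adjusted by Benjamini-Hochberg over all 12735 genes. The number of arrays limits the precision. Replicate numbers were not used as pairs: of 18 pairs of arrays with the same number, 3 correlated above 0.1 after removal of group means (r from -0.31 to 0.27). No batch is given in the labels. The 10 genes were taken as listed; members of other lists were named if called, or else the 2 with the smallest p in the pathway lists. The genes and lists were chosen with earlier results of these data known. Alternatives covered probe sets, filter, quantile normalization, an offset of 16, array weights, the variance prior, the groups in the fit, a replicate block and each array left out; leaving out 2 arrays together was chosen after seeing the data. Promoter sequences are from RefSeq (GRCm38.p6), and all 10 symbols matched.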

Additional observations from a re-analysis of the deposited data

How the results depend on the processing

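Of 1746 recomputed log2 changes of the 10 genes, 1721 stayed on their side of the threshold, 8 lost a call and 17 gained one; none that was called changed sign, and 90 that were called under neither setting did. For irradiated against unirradiated tumors, 2 of the 10 genes were called as reported, 5 with array weights, 4 without control replicate 1 and radiation replicate 3 together, and between 0 and 4 when single tumors were left out. For 1D11_radiation against 1D11, the count of 0 became 3 with array weights, 1 without that pair of tumors, and at most 1, from a low of 0, when single tumors were left out. For 1D11_radiation against control the leave-out counts ran from 0 to 1. In the other 5 comparisons it stayed at 0 in every alternative run. With the replicate block the count for radiation was also 2 (Ddit3 adjusted p = 0.0445, Vldlr adjusted p = 0.0349), and no other call of the 10 genes changed; 4 hypoxia genes rose in place of 8, Eif2b3, Krt19, 1 NRF2 target and 1 endothelial marker lost their calls, and over all genes the block gave 85 calls in place of 299 for 1D11_radiation against control, 1 in place of 10 for 1D11_radiation against 1D11 and 206 in place of 304, which is within 1.5 times, for radiation against control. Over all genes the radiation count of 925 was 2176 with array weights, 1410 without the pair of tumors, and from 407, without radiation replicate 1, to 1159. It was 449, 577 and 613 without 1D11 replicates 2, 3 and 1, 543 without radiation replicate 2, and 582 and 442 without 1D11_radiation replicates 1 and 3. The count of 299 was 178 with no filter, 923 with array weights and 1 with only those groups fitted; 10 was 1491 with array weights, 35 when probe sets were averaged, 63 with the trend and robust prior, 119 with only those groups and 419 without the pair; 304 was 890 with array weights, 193 when probe sets were averaged, 6 with only those groups and 569 without the pair. With single tumors left out, the counts of 299, 10 and 304 ran from 17 (without 1D11_radiation replicate 3) to 424, from 1 (without the same tumor) to 227 (without control replicate 1), and from 20 (without radiation replicate 2) to 436. The 2 genes called for 1D11 against control were 13 with array weights and 59 without the pair, and 0 to 21 with a tumor left out; for the interaction the 0 became 122, 20 and 0 to 21. With array weights all 8 genes of amino acid synthesis were higher and 1 was called, and 2 transporters were called; quantile normalization, the offset, averaged probe sets or the trend and robust prior gave 1 transporter. Scaling did not turn any gene's direction in the comparison of irradiated and unirradiated tumors, where all 10 were higher as deposited, with quantile normalization and with the offset. Background signal per array is not known, so how far dim probe sets such as those of Chac1 and the lower Vldlr ones understate a change cannot be given.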
